A study of Homo sapiens with 4 samples.

Results

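The genes described here are 10 regulators of the G1 phase of the cell cycle, chosen by name: the D-type cyclins *CCND1*, *CCND2* and *CCND3*, the E-type cyclins *CCNE1* and *CCNE2*, the kinases *CDK4* and *CDK6*, the inhibitors *CDKN1A* and *CDKN2B*, and the pocket protein *RB1*. Of the 16813 genes listed in at least 1 library, 9 were members of this set, and all 9 passed the filter on low counts that left 13148 genes for testing. *CCND2* was not listed in any of the 4 libraries and was taken as 0, so it was not tested. The lines sequenced were PC9, a lung adenocarcinoma line with mutant *EGFR* that is sensitive to EGFR inhibitors (genotype labelled WT, control), and PC9OR, a derivative of PC9 labelled WT and osimertinib resistant. Each line had 2 biological replicates, and both were grown in the same medium with fetal bovine serum. PC9OR is 1 resistant line, and whether osimertinib was in its medium at harvest was not given in the sources used here. Nothing says that the replicates came from separate cultures, so p-values set the difference between the lines only against the spread between these libraries.

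Cells pass through G1 when D-type cyclins, made in response to growth factor signals such as those from EGFR, bind CDK4 or CDK6 and phosphorylate the retinoblastoma protein RB1. RB1 and its relatives RBL1 and RBL2 hold back E2F transcription factors, and E2F activity in turn raises E-type cyclins, which activate CDK2 and commit the cell to S phase. Inhibitors of the INK4 family, such as the product of *CDKN2B*, bind CDK4 and CDK6, whereas those of the CIP/KIP family, such as the product of *CDKN1A*, chiefly restrain CDK2. In cells that depend on EGFR, inhibition of the receptor is known to lower cyclin D and to arrest cells in G1.

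The libraries held 23201307 and 29062064 expected counts (estimated reads per gene, not normalized) in PC9 replicates 1 and 2, and 31948974 and 32203998 in PC9OR replicates 1 and 2. Replicates varied more in PC9 (biological coefficient of variation 0.241) than in PC9OR (0.104). The difference ran with transcript length. Over 11429 well counted genes, the rank correlation of length with the log2 difference between PC9 replicates 2 and 1 was -0.46, against 0.00 between the PC9OR replicates and -0.40 between PC9OR and PC9. These correlations are descriptions across genes, which share libraries and are not independent. Each regulator is therefore given also from a fit with transcript length offsets, which remove any part of a difference that follows length, technical or not.

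The lines carried the keratins of an epithelial cell. *KRT8* reached 669 and 778 FPKM (fragments scaled to transcript length and library size) in PC9 and 1737 and 1717 in PC9OR, and *EPCAM* held at least 7820 counts in every library. The epithelial cadherin *CDH1* was lower in PC9OR, at 69.5 and 49.5 FPKM in PC9 and at 22.02 and 20.1 FPKM in PC9OR (log2 fold change -1.46, adjusted p = 0.00814, edgeR). The lung markers *NKX2-1* and *NAPSA* had at most 12 and 11 counts, while *SFTPB* and *SFTPC* were not listed. Fibroblast markers summed to between 1.47 and 1.75 CPM (normalized counts scaled to library size) in the 4 libraries. Leukocyte markers summed to 17.5 and 14.04 CPM in PC9 and to 7.30 and 6.88 in PC9OR, mostly *CD68*, with *PTPRC* at 1 count or 0. Endothelial markers summed to 37.0 and 23.96 CPM in PC9 and to 5.06 and 5.35 in PC9OR, most of it *CDH5*, with *VWF* at 4 counts or fewer and *KDR* not listed. The part of these markers in the results was not tested.

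In PC9OR cells, 1 of the 9 tested regulators was higher and 2 were lower at an adjusted p under 0.05 (quasi-likelihood test of edgeR, Benjamini-Hochberg adjustment over all genes). *CCNE2* was 1.61-fold higher, *CDKN1A* was 2.35-fold lower and *CDK6* was 1.62-fold lower. Among all genes tested, 15.6% were higher and 20.8% lower by the same rule, 36.4% in all, so the share of regulators called, 33.3%, was near the background. The median log2 fold change of the 9 was -0.02, against 0.01 for all genes tested. A lower level in bulk RNA cannot tell less RNA per cell apart from fewer cells that carry it. The CPM of the lines did not overlap for 7 of the 9, 4 higher and 3 lower in PC9OR, and for 77.8% of all genes, 39.6% higher and 38.2% lower. With length offsets *CCNE2* was still called higher and *CDKN1A* lower, and *CDK6* was not called, where that fit called 19.6% of all genes higher and 18.3% lower, 37.9% in all. Adding the replicate number as a block to the offsets called the same 2 regulators, against 23.5% of all genes higher and 19.7% lower, 43.1% in all. The block without offsets and the Wald test of DESeq2 each called *CCNE2* higher and *CDK6* and *CDKN1A* lower. The block called 19.7% of all genes higher and 22.4% lower, 42.1% in all, and DESeq2 called 18.6% higher and 23% lower, 41.6% in all. At the threshold that the study states, over 2-fold change and an adjusted p under 0.001, edgeR's test called 0 of the 9 and 0% of all genes. The smallest adjusted p over all genes was 0.00155 (edgeR), so this 0 does not set the regulators apart. The study applied its threshold to another test, DEGseq, which was not run here. An unadjusted p under 0.05 was reached by 50.6% of all genes, and together with a change over 2-fold by 20.4%, and by 1 of the 9, *CDKN1A*. At the same threshold DESeq2's Wald test called 1735 genes, *CDKN1A* among them.

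**Figure D1:**
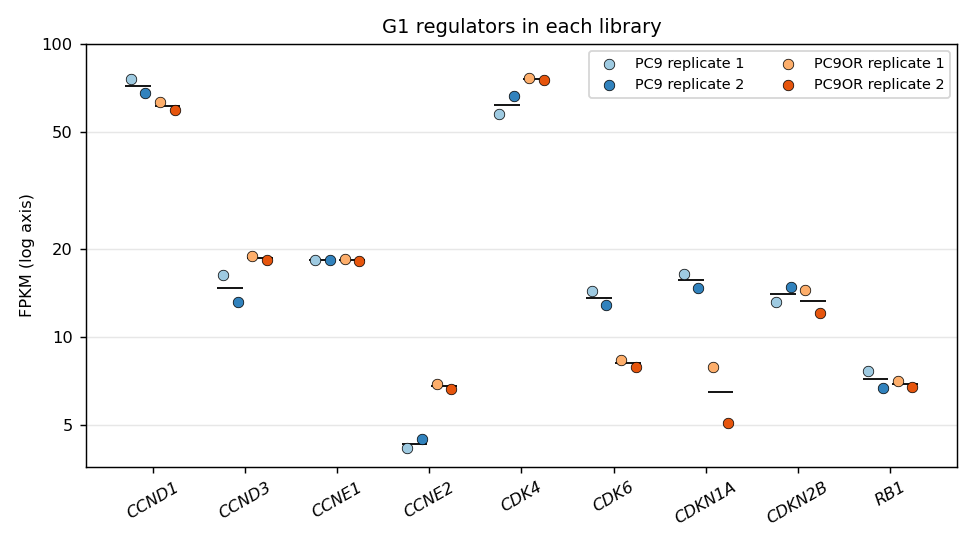
FPKM (log axis) of the 9 listed G1 regulators in each library, with blue points for PC9, orange points for PC9OR and short lines for the mean of each line. *CDKN1A*, *CDK6* and *CCNE2* separate the lines most, while the *CCNE1* points lie between 18.1 and 18.5 FPKM in all 4 libraries.

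Per unit of length, *CCND1* and *CDK4* were the most abundant of the regulators in both lines. In PC9 cells *CCND1* was first, at 71.9 ± 5.63 FPKM (SD, n = 2), followed by *CDK4* at 62.0 ± 6.12 and *CCNE1* at 18.3 ± 0.0495 (SD, n = 2). *CDKN1A*, *CCND3*, *CDKN2B* and *CDK6* came next, between 13.6 and 15.6 FPKM on average, and each overlapped its neighbour in the order. *RB1* at 7.19 and *CCNE2* at 4.33 FPKM closed the order and were apart from each other. In PC9OR cells *CDK4*, at 76.1 ± 0.813 FPKM (SD, n = 2), stood above *CCND1* at 61.5 ± 2.998 (SD, n = 2). *CCND3* and *CCNE1* overlapped in the next places, *CDKN2B* and *CDK6* followed apart, and *RB1*, *CCNE2* and *CDKN1A* overlapped at the end, with means between 6.50 and 6.92 FPKM.

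*CCND1* (Entrez gene 595, chromosome 11 of GRCh37 from 69455924 to 69469242) encodes cyclin D1, the D-type cyclin most tied to growth factor signalling in epithelial cells. It was at 75.9 and 67.9 FPKM in PC9 and at 63.6 and 59.3 FPKM in PC9OR. The lines did not overlap, and PC9OR was the lower, by less than the test could separate from replicate spread. Its log2 fold change was -0.19 with a 95% confidence interval from -0.47 to 0.09 (adjusted p = 0.221, edgeR), and with length offsets it was 0.03 (-0.21 to 0.28). Without PC9 replicate 2 it fell by 0.27 on the log2 scale and was called lower (adjusted p = 0.0246, edgeR). *LTO1*, on the opposite strand, overlaps *CCND1* in the annotation, and the sources used here do not say whether reads were counted by strand.

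*CCND3* (Entrez gene 896, chromosome 6 from 41902672 to 42018095) encodes cyclin D3. Its level was 16.2 and 13.1 FPKM in PC9 against 18.95 and 18.3 FPKM in PC9OR. The groups did not overlap, yet the log2 CPM of PC9 replicate 2 minus that of replicate 1 was -0.28. For *CCND3* the log2 fold change was 0.38 (0.02 to 0.73, adjusted p = 0.0847, edgeR) and 0.29 (-0.05 to 0.63) with length offsets, so it did not pass the threshold in either fit. Without PC9 replicate 1 it was called higher, at 0.51 (adjusted p = 0.0105, edgeR), and without PC9 replicate 2 it was at 0.23 (adjusted p = 0.0705, edgeR). *CCND1* made up 82.4% and 83.8% of the summed D-type FPKM in PC9 and 77.0% and 76.4% in PC9OR, and *CCND3* made up the rest. The share of *CCND3* was thus 6.35 percentage points higher in PC9OR on average, and with 2 libraries against 2 the smallest two-sided p of an exact permutation test is 0.333.

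*CCNE1* (Entrez gene 898, chromosome 19 from 30302898 to 30315219), which encodes cyclin E1, had the narrowest range of FPKM over the 4 libraries among the regulators. It was at 18.3 and 18.3 FPKM in PC9 and at 18.5 and 18.1 FPKM in PC9OR. Its log2 fold change was 0.02 with an interval from -0.25 to 0.29 (adjusted p = 0.877, edgeR), and -0.09 (-0.34 to 0.17) with length offsets.

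*CCNE2* (Entrez gene 9134, chromosome 8 from 95891998 to 95908906) encodes cyclin E2, the second partner of CDK2 at the end of G1. It was at 4.17 and 4.48 FPKM in PC9 and at 6.94 and 6.67 FPKM in PC9OR. The lines were apart, PC9OR being the higher, and the gap exceeded the spread within either line. The difference on the log2 scale was 0.68 (standard error 0.134, interval 0.34 to 1.03, adjusted p = 0.0195, edgeR), and the length offsets left it at 0.70 (adjusted p = 0.0136, edgeR). Without PC9OR replicate 1 or 2 the log2 fold change was 0.67 or 0.70, and the adjusted p was 0.154 or 0.139 (edgeR). *CCNE2* thereby rose from 18.5% and 19.7% of the summed E-type FPKM in PC9 to 27.3% and 26.9% in PC9OR. It shares its position with *INTS8* and *NDUFAF6* on the opposite strand. Their log2 fold changes were 0.58 (adjusted p = 0.0179, edgeR) and 0.85 (adjusted p = 0.0638, edgeR). The sources used here do not say whether reads were counted by strand. Whether reads of these genes entered the counts of *CCNE2* was not tested.

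*CDK4* (Entrez gene 1019, chromosome 12 from 58141510 to 58149796) encodes the kinase that pairs with D-type cyclins in most epithelial cells. It was at 57.6 and 66.3 FPKM in PC9 and at 76.7 and 75.5 FPKM in PC9OR. The PC9OR libraries were both above the PC9 libraries, of which replicate 2 was the higher. Its log2 fold change of 0.32 (0.01 to 0.64) did not pass the threshold over all genes (adjusted p = 0.0921, edgeR), nor did 0.23 (-0.05 to 0.51) with length offsets. Without PC9 replicate 1 it was 0.21 (adjusted p = 0.0462, edgeR) and without PC9 replicate 2 it was 0.43 (adjusted p = 0.0054, edgeR), both past the threshold. *TSPAN31* and *MARCHF9* overlap it on the opposite strand.

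*CDK6* (Entrez gene 1021, chromosome 7 from 92234235 to 92465887) encodes the second D-cyclin kinase. It fell from 14.3 and 12.9 FPKM in PC9 to 8.38 and 7.89 FPKM in PC9OR. No library of one line reached the range of the other. Its log2 fold change was -0.70 (standard error 0.107, interval -0.97 to -0.43, adjusted p = 0.0115, edgeR). *CDK6* has the longest transcript of the set, 11695 bases on average against 1941 to 4772 bases for the others, and with length offsets its log2 fold change was 0.19 (-0.15 to 0.53, adjusted p = 0.314, edgeR). The 295 tested genes with transcripts of at least 10000 bases, a class chosen after the values were seen, were at a median log2 fold change of -0.81, and the 2630 genes with the shortest transcripts were at a median of 0.42. Without PC9OR replicate 1 or 2 and without offsets, *CDK6* was at -0.72 or -0.66, with an adjusted p of 0.121 or 0.154 (edgeR). *CDK6-AS1* overlaps it on the opposite strand.

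The ratio of *CDK4* to *CDK6* in FPKM was 4.03 and 5.14 in the PC9 libraries and 9.15 and 9.57 in the PC9OR libraries. *CDK6* accordingly made up 19.9% and 16.3% of the summed FPKM of both kinases in PC9 and 9.85% and 9.46% in PC9OR. This ratio sets a transcript of 2002 bases against one of 11695 bases. With length offsets the log2 fold changes of *CDK4* and *CDK6* were 0.23 and 0.19, so the difference between them was not seen in that fit.

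**Figure D2:**
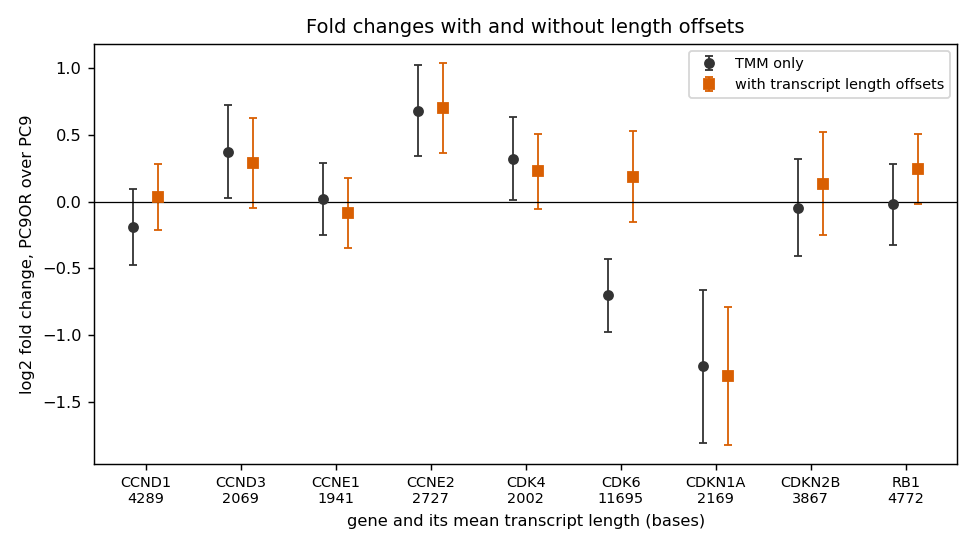
Log2 fold change of PC9OR over PC9 for the 9 tested regulators, with 95% confidence intervals from edgeR's quasi-likelihood fit, without (circles) and with (squares) transcript length offsets; the mean transcript length in bases stands under each gene. *CDKN1A* and *CCNE2* lie in the same place in both fits, and *CDK6*, the longest transcript, moves from -0.70 to 0.19.

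*CDKN1A* (Entrez gene 1026, chromosome 6 from 36644237 to 36655114) encodes p21, the CIP/KIP inhibitor induced by p53 and by stress. It had the largest change of the set, from 16.5 and 14.8 FPKM in PC9 to 7.90 and 5.09 FPKM in PC9OR. The lines did not overlap, although the PC9OR libraries were themselves apart, with a log2 CPM difference of replicate 2 minus replicate 1 of -0.60, the widest among the regulators. Its log2 fold change was -1.23 (standard error 0.225, interval -1.81 to -0.66, adjusted p = 0.0166, edgeR) and -1.30 (adjusted p = 0.00814, edgeR) with length offsets. With each library left out in turn it ran from -1.56 to -0.96 and was called each time, the adjusted p reaching 0.0497 at most (edgeR). DESeq2's Wald test gave an adjusted p of 1.31e-05, and edgeR's test with the replicate number as a block gave 0.000529. *DINOL*, on the opposite strand, overlaps *CDKN1A*.

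The windows below, of 30 bases each, come from RefSeq promoters on GRCh38.p14 (250 bases before to 50 after an annotated start) and were placed on GRCh37 by exact match. Each shows 2 GC boxes (GGGCGG on either strand, capitals), of the 4 that the promoter of *CDKN1A* holds and of the 7 that the promoter of *CCNE1* holds. *CDKN1A* is the regulator that changed most, and *CCNE1* the one with the narrowest range of FPKM. The *CDKN1A* window lies at chr6:36646380-36646409 on the plus strand, from 111 to 82 bases before the start, and the *CCNE1* window at chr19:30302673-30302702 on the plus strand, from 225 to 196 bases before it.
CDKN1A: ccggggaGGGCGGtcccGGGCGGcgcggtg
CCNE1: gccCCGCCCtgtccgccggccCCGCCCctg
GC boxes were in the promoters of 6 of the 7 regulators that were searched, *CCND3*, *CCNE1*, *CDK4*, *CDK6*, *CDKN1A* and *CDKN2B*, and in 45.0% of the 35116 promoters of the table. They were also in 23 of the 28 pathway genes searched, which come from 3 lists described below. *CCND1*, *CCND2* and *CCNE2* were not searched for these letters or for those of the other motifs below. A gene with several promoters counted once if any of them held the letters, whereas the share over the table is per promoter, so these shares are not in like units. Such a match is a run of letters and not a measured binding site.

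*CDKN2B* (Entrez gene 1030, chromosome 9 from 22002902 to 22009304) encodes p15, the INK4 inhibitor known as a target of TGF-beta signalling. It was at 13.2 and 14.8 FPKM in PC9 and at 14.5 and 12.1 FPKM in PC9OR. The lines overlapped. The log2 fold change was -0.04 (-0.41 to 0.32, adjusted p = 0.818, edgeR), and 0.14 (-0.25 to 0.52) with length offsets. The antisense gene *CDKN2B-AS1* overlaps it and had a log2 fold change of -0.35 (standard error 0.424, adjusted p = 0.537, edgeR).

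*RB1* (Entrez gene 5925, chromosome 13 from 48877880 to 49173572), the substrate on which the D- and E-type kinases converge, was at 7.69 and 6.68 FPKM in PC9 and at 7.09 and 6.75 FPKM in PC9OR. The 4 values were interleaved. Its log2 fold change was -0.02 (-0.32 to 0.29, adjusted p = 0.913, edgeR), and 0.24 (-0.02 to 0.50, adjusted p = 0.119, edgeR) with length offsets. *LPAR6* and *RCBTB2* overlap it on the opposite strand.

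The other CDK inhibitors were 6 genes, of which 3 were higher in PC9OR and 0 lower by edgeR's test, where 15.6% of all genes were higher and 20.8% lower. With length offsets 2 were higher, and without PC9OR replicate 1 or 2, 0 or 1 of the 3 calls was made. *CDKN1B*, which encodes the CIP/KIP inhibitor p27, rose from 11.5 and 13.7 FPKM to 22.6 and 23.1 FPKM, a log2 fold change of 0.89 (standard error 0.138, adjusted p = 0.0119, edgeR) that the length offsets left at 0.88. Without PC9OR replicate 1 or 2 it was at 0.93 or 0.86 and was not called (adjusted p = 0.0525 or 0.067, edgeR). *CDKN1A* and *CDKN1B* thus moved in opposite directions. Their ratio in FPKM was 1.43 and 1.08 in PC9 and 0.350 and 0.220 in PC9OR, while the summed FPKM of the CIP/KIP genes was 28.0 and 28.4 in PC9 and 31.1 and 28.5 in PC9OR. *CDKN1C*, for p57, had 1 count over both PC9 libraries and 64 over both PC9OR libraries, a ratio of 52.3 with an exact interval from 9.05 to 2096 that covers counting error only. The PC9OR libraries held 45 and 19 of these counts, and without PC9OR replicate 1 *CDKN1C* was not called (adjusted p = 0.0959, edgeR). *CDKN3*, a phosphatase that acts on CDK2, rose by 0.79 (adjusted p = 0.0394, edgeR), and with length offsets it was at 0.41 (adjusted p = 0.0527, edgeR).

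The remaining INK4 genes were not called. *CDKN2A*, which encodes p16 and ARF, was at 20.9 and 33.8 FPKM in PC9 and at 44.02 and 37.3 FPKM in PC9OR, with a log2 fold change of 0.59 (standard error 0.262, adjusted p = 0.13, edgeR), or 0.30 with length offsets. With the replicate block it was called higher, at 0.63 (adjusted p = 0.0422, edgeR), and with each library left out it ran from 0.27 to 0.99, the latter, without PC9 replicate 2, being a call (adjusted p = 0.00584, edgeR). The lines did not overlap, and the gap between the PC9 replicates was wider than that between PC9 replicate 2 and either PC9OR library. *CDKN2C* had a log2 fold change of -0.67 (adjusted p = 0.113, edgeR), with a call by limma-trend on log2(FPKM + 1) alone (adjusted p = 0.042). *CDKN2D* was at 0.41 (adjusted p = 0.46, edgeR) and at 0.11 with length offsets, and it ran from 0.088 to 0.81 with each library left out. The levels of *CDKN2C* and *CDKN2D* ran from 0.81 to 1.43 FPKM and from 0.62 to 1.14 FPKM.

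**Figure D3:**
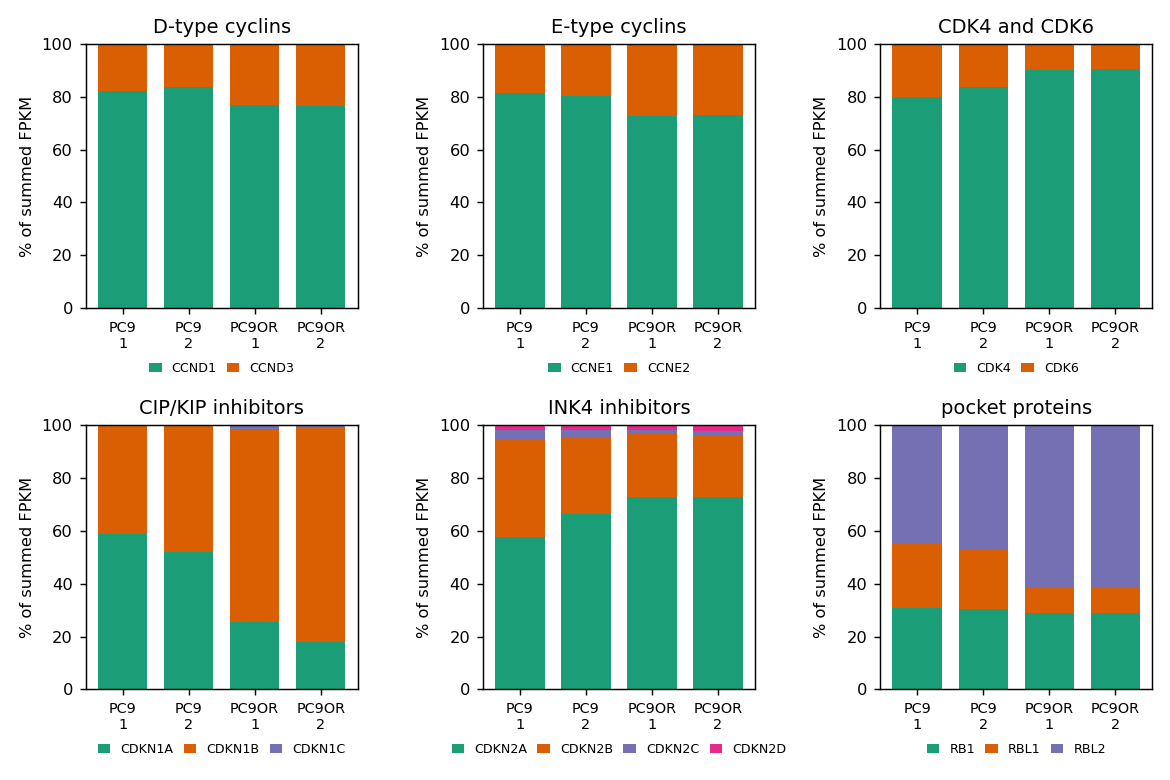
Share of each gene in the summed FPKM of its family (percent, bars from 0 to 100) in the PC9 and PC9OR replicates, for cyclins, kinases, inhibitors and pocket proteins. *CDKN1A* makes up 58.8% and 51.9% of the CIP/KIP FPKM in PC9 and 25.4% and 17.9% in PC9OR, and *RBL1* drops from 24.2% and 22.6% of the pocket protein FPKM to 9.57% and 9.81%.

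Of the 12 genes of pocket proteins and E2F factors beside *RB1*, 1 was higher and 3 were lower, 33.3% called against 36.4% of all genes, with a median log2 fold change of -0.08. *RBL1*, which encodes p107, fell from 6.0 and 4.98 FPKM to 2.36 and 2.28 FPKM (log2 fold change -1.15, adjusted p = 0.00836, edgeR). *RBL2*, which encodes p130, a pocket protein of resting cells, rose from 11.1 and 10.4 FPKM to 15.2 and 14.2 FPKM (0.50, adjusted p = 0.0233, edgeR). The repressor E2Fs *E2F7* and *E2F8* fell by 1.78 and 1.06 on the log2 scale (adjusted p = 0.00547 and 0.0222, edgeR). These 4 calls were also made with length offsets, and without either PC9OR library those of *RBL1* and *E2F7* were made and those of *RBL2* and *E2F8* were not. The activator *E2F1* was at -0.27 (adjusted p = 0.151, edgeR) and was not called, and neither were *E2F2* and *E2F3*, at -0.10 and 0.11 (0.20 and 0.38 with length offsets), which are named after their values were seen.

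The window below, at chr20:35724403-35724432 on the minus strand, is shown because *RBL1* holds a pair of E2F core motifs there (the letters TTCCCGC, the letters TTCGCGC, the letters TTGCCGC or else TTGGCGC on either strand, capitals), from 32 to 3 bases before its RefSeq start.
RBL1: gcagattTTCGCGCgctTTGGCGCaggtgg
Of the 5 pathway genes called lower, 4 had a promoter that was searched, and *RBL1*, *E2F7* and *FBXO4* held the E2F core there. Of the 6 called higher, *CDK2* and *CDKN1C* were not searched, and 0 of the 4 searched held it. Whether these letters go with the direction of a call was not tested, and the groups are small. Counted per gene over any of its promoters, the E2F core was in 12 of the 28 pathway genes searched and in 0 of the 7 regulators searched. Those 7 leave out *CCNE2*, the regulator called higher. Counted per promoter, the E2F core was in 12.97% of the table. The AP-1 letters TGACTCA or its reverse complement TGAGTCA were in 0 of the 7 and 0 of the 28, against 4.95% of all promoters.

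Of the 14 genes of CDK2, CDK activation and cyclin turnover, 2 were higher and 2 lower. *CDK2* rose by 0.44 on the log2 scale (18.9 and 20.1 FPKM in PC9, 27.1 and 24.8 FPKM in PC9OR, adjusted p = 0.0391, edgeR). *MNAT1*, the assembly factor of the CDK-activating kinase, rose by 0.61 (adjusted p = 0.0451, edgeR), and was at 0.35 (adjusted p = 0.071, edgeR) with length offsets. *AMBRA1*, the receptor of the ligase that degrades D-type cyclins, fell from 9.62 and 7.97 FPKM to 4.02 and 4.42 FPKM (log2 fold change -1.01, adjusted p = 0.00989, edgeR). With each library left out *AMBRA1* ran from -1.15 to -0.90, and without PC9OR replicate 1 it was not called. *FBXO4*, an F-box protein tied to cyclin D1, fell from 2.61 and 3.66 FPKM to 0.52 and 0.56 FPKM (-2.54, adjusted p = 0.00862, edgeR). *FBXO31*, another F-box protein tied to cyclin D1, named after its values were seen, was at -0.38 (adjusted p = 0.0952, edgeR) and at -0.016 with length offsets. Over these 3 lists, 6 of 32 genes were higher and 5 lower, 34.4% called against 36.4% of all genes, with a median log2 fold change of 0.14. Without PC9OR replicate 1 or 2, 0 or 1 of the 32 were called higher by edgeR's test, where the same fits called 525 or 527 genes higher in all.

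**Figure D4:**
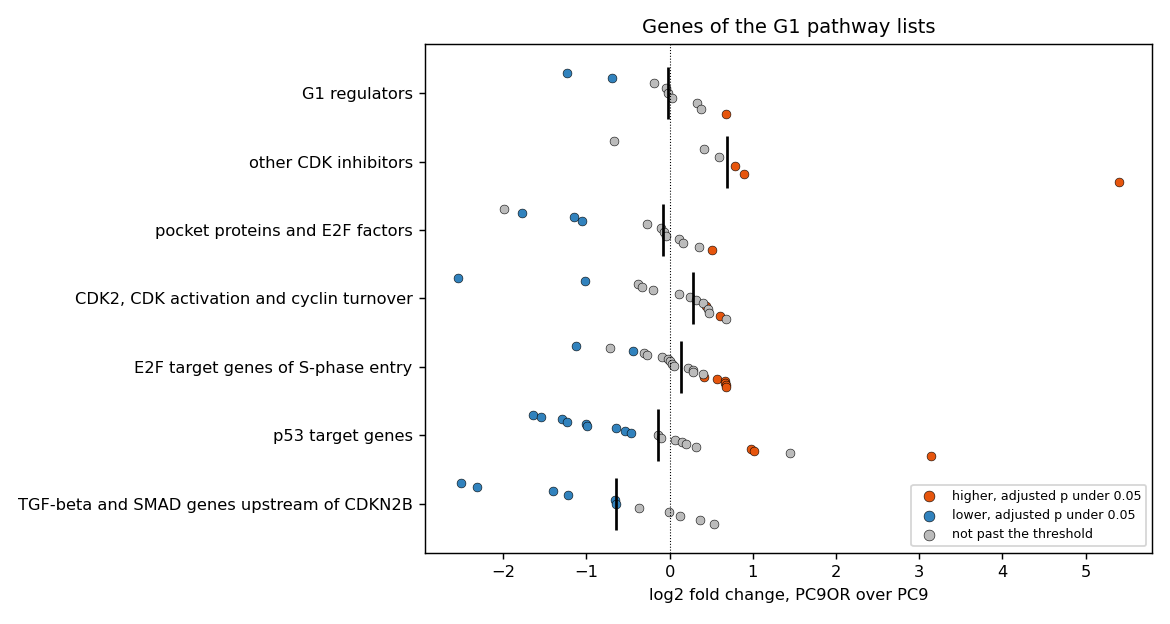
Log2 fold change of PC9OR over PC9 for each tested gene of 7 lists, coloured by the call at an adjusted p under 0.05 from edgeR, with a vertical line at the median of each list. The p53 target genes and the TGF-beta and SMAD genes have the most points called lower, 9 and 6; the point near 5.4 is *CDKN1C*, whose fitted value rests on 1 count in PC9.

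Among 20 E2F target genes of S-phase entry, 6 were higher and 2 lower, 40% called against 36.4% of all genes, with a median log2 fold change of 0.14. Beside *CCNE2*, genes that rose included *PCNA*, the clamp of DNA polymerases (0.68, adjusted p = 0.0306, edgeR, and 0.41 with length offsets), and *MCM6*, a subunit of the replicative helicase (0.67, adjusted p = 0.0128, edgeR). *TYMS*, thymidylate synthase, fell by 1.13 (adjusted p = 0.0119, edgeR) and *ORC1* by 0.44 (adjusted p = 0.0313, edgeR). Members of the list thus changed in both directions. Without PC9OR replicate 1 or 2, 0 or 1 of the 8 calls was made, the latter being *TYMS*.

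Of 20 p53 target genes, 19 were tested, 9 were lower and 3 higher, so 63.2% were called against 36.4% of all genes, with a median log2 fold change of -0.14, or -0.44 with length offsets. *CDKN1A* belongs to this list. *FAS*, a death receptor, fell by 1.65 (adjusted p = 0.0072, edgeR), *ZMAT3* by 1.55 (adjusted p = 0.0311, edgeR) and *GADD45A*, a stress sensor, by 1.29 (adjusted p = 0.0078, edgeR). *GADD45A* had 67.6 and 81.1 FPKM in PC9 and 32.9 and 27.4 FPKM in PC9OR, so it separated the lines as *CDKN1A* did. The genes that rose were *RRM2B* (1.01, adjusted p = 0.0122, edgeR), *SESN1* (0.98, adjusted p = 0.0188, edgeR) and *BTG2*, at 3 counts over the PC9 libraries and 35 over the PC9OR libraries. Of the 12 calls, 6 were made without PC9OR replicate 1 and 6 without PC9OR replicate 2. *ZMAT3* was not called with length offsets (adjusted p = 0.0856, edgeR) or without PC9 replicate 1 (adjusted p = 0.0554, edgeR), and it ran from -2.18 to -1.10 with each library left out.

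The TGF-beta and SMAD genes, the known route to *CDKN2B*, held 0 higher and 6 lower genes of 11, where 15.6% of all genes were higher and 20.8% lower, with a median log2 fold change of -0.65, or -0.15 and 4 lower genes with length offsets, a fit that called 18.3% of all genes lower. Of the 6 calls, 4 were made without PC9OR replicate 1 or 2. *SMAD4* was at 0.53 (adjusted p = 0.25, edgeR) and ran from 0.10 to 1.12 with each library left out. It was called higher with the replicate block (adjusted p = 0.0487, edgeR). With offsets and block together *SMAD4* and *SMAD2* were called higher (adjusted p = 0.00184 and 0.0345, edgeR). *SMAD3*, a receptor-activated SMAD, fell from 29.1 and 19.5 FPKM to 4.41 and 3.76 FPKM (log2 fold change -2.50, adjusted p = 0.00533, edgeR). *TGFB1*, the ligand, fell by 2.32 (adjusted p = 0.0171, edgeR, from -2.80 to -1.63 with each library left out) and the receptor *TGFBR2* by 1.23 (adjusted p = 0.00723, edgeR). *CDKN2B* itself, at -0.04, did not pass the test in any of the fits that were run.

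The tested genes on either side of each regulator, 15 a side, give its position a context. Around *CDKN1A* the median log2 fold change was 0.07, and around *CDK6* it was 0.19, against -1.23 and -0.70 for the genes themselves. With length offsets *CDKN1A* was at -1.30 against a median of 0.21, whereas *CDK6* was at 0.19 against 0.27. The nearest neighbours of *CDKN1A* were *SRSF3*, a splicing factor, at 0.78 (adjusted p = 0.0356, edgeR) and *CPNE5* at -1.13 (adjusted p = 0.105, edgeR). Around *CCNE2* the median was 0.48, with 11 of 30 genes higher and 3 lower, where 15.6% of all genes were higher and 20.8% lower. That median was 0.37 with 10 genes a side and 0.15 with 25. Around *RB1* the median was 0.49, with 13 of 30 higher and 3 lower, above the -0.02 of *RB1*. The adjoining *ITM2B* and *RCBTB2* were higher by 0.46 and 1.24 (adjusted p = 0.0407 and 0.023, edgeR). With length offsets *ITM2B* was at 0.34 and was not called (adjusted p = 0.0612, edgeR), and *RCBTB2* was at 1.34 (adjusted p = 0.0134, edgeR). Around *CCND1* the median was -0.43 (-0.25 with 25 genes a side), with 0 of 30 higher and 7 lower. For *CCNE1* the median was 0.29 (0.04 with 25 a side) and both nearest genes, *C19orf12* and *URI1*, were higher (0.63 and 0.87, adjusted p = 0.0314 and 0.00929, edgeR), at a gene whose own value was 0.02. The medians around *CCND3*, *CDK4* and *CDKN2B* were 0.25, 0.09 and -0.02. DNA copy number was not measured in these libraries.

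**Figure D5:**
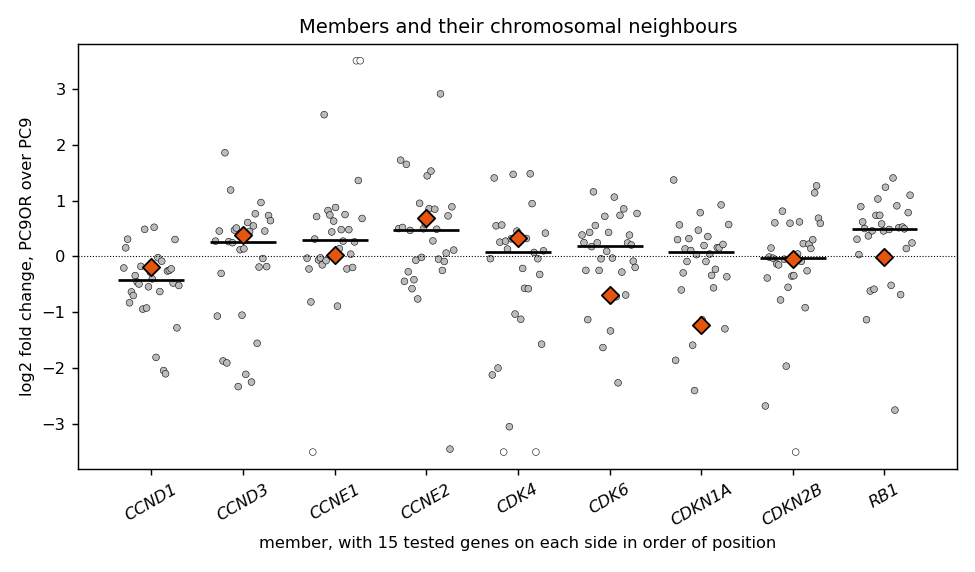
Log2 fold change of PC9OR over PC9 for each regulator (diamonds) and for the 15 tested genes on either side of it (small points, in order of position), with a line at the median of the neighbours. Open points mark 6 neighbours beyond the axis limit of 3.5; in this fit without length offsets *CDKN1A* and *CDK6* lie below the medians of their neighbours, 0.07 and 0.19, and with offsets *CDK6* is at 0.19 against 0.27.

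The genes whose pattern over the 4 libraries was nearest to that of *CCNE2*, by Euclidean distance between gene-centred log2 CPM, were *AAGAB* (0.0146), *ABHD16A* (0.0369) and *MCCC1* (0.0372). *AAGAB* was at 72.9 and 81.1 CPM in PC9 and at 124 and 123 CPM in PC9OR. Nearest to *CDKN1A* were *LOC728715* (0.101), *ZNF30* (0.102) and *ZEB1* (0.108), with at most 3.71 CPM in any library and none of them past the test over all genes (adjusted p = 0.0635, 0.0778 and 0.0589, edgeR). With 4 libraries such likeness is a description of the values.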

How the data were processed

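RNA of PC9 and PC9OR cells (2 replicates each) had been prepared with a TruSeq Stranded kit. Per the submitters' processing notes, Bowtie2 2.2.5, RSEM 1.2.12 and GRCh37 were used, and the paper names SOAP for read filtering. The authors deposited, by gene and library, an expected count (an estimate, not always whole), an FPKM value and an isoform-weighted transcript length, also deposited. Genes with no count are not listed and were set to 0. Entrez identifiers were matched to RefSeq symbols (99.7% of genes), and positions were taken from GENCODE lifted to GRCh37.

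Rounded expected counts entered edgeR 4.0.16 under R 4.3.3 (filterByExpr, TMM, glmQLFTest), with all 4 libraries and no pairing. Same-numbered libraries deviated with a correlation of 0.0553. A call means an adjusted p under 0.05. Intervals are 95% intervals of that fit. The replicates are not duplicates, with a chi-square per gene of 65.5 in PC9 and 9.93 in PC9OR. Length offsets were smooth curves of log2 CPM on log2 length for each library (mgcv 1.9.3). Alternatives were DESeq2 1.42.0 (size factors, Wald test), library totals, limma 3.58.1 on log2(FPKM + 1) and log2(FPKM + 0.1), other filters, the replicate block, and each library left out. All regulators and inhibitors were named, and from the other lists called genes, at most the 4 with the largest change in each direction. Some genes that this rule names are not reported here. On simulated data without a length trend, false calls were few, and edgeR called 57% of the 2-fold and 83% of the 4-fold changes put in. With such a trend added, edgeR without offsets made many false calls and edgeR with length offsets few, so calls without offsets can include genes that follow length. The trend added had a form that the offsets remove, so this simulation cannot show whether the offsets suit these data. Members and lists were chosen with earlier results of these data known.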

Additional observations from a re-analysis of the deposited data

How the results depend on the processing

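*CDKN1A* was called lower under all 14 alternatives. *CCNE2* kept its direction under all of them and its call under 12, the exceptions being the fits without a PC9OR library. *CDK6* lost its call without a PC9OR library and reversed with length offsets, alone (0.19) and with the replicate block (0.19). Under the same pair of fits the uncalled *CCND1* (0.034 and 0.034), *CCNE1* (-0.085 and -0.085), *CDKN2B* (0.14 and 0.14) and *RB1* (0.24 and 0.24) also changed sign, and *CCNE1* was at -0.0019 and -0.0020 in the limma-trend fits on log2(FPKM + 1) and log2(FPKM + 0.1). With each library left out, *CDKN2B* ran from -0.16 to 0.077 and *RB1* from -0.12 to 0.062. The regulators called lower were 1 with length offsets and 1 with length offsets and the replicate block. The replicate block, for which the numbers are only a shared number, raised the pathway genes called higher to 10 of 32, where it called 19.7% of all genes higher, and changed no call of a regulator. Length offsets with the block called 3086 genes higher in all.

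The study applied its threshold to DEGseq, which was not run here. At that threshold 0 genes were called by the main fit of edgeR, against 1735 with DESeq2's Wald test and 7 where each library had to hold 10 counts or more. It called 5 with low counts unfiltered, 1184 with the replicate block, 87 with length offsets and 1241 with both. With each library left out this count ran from 15 to 668, the genes called higher from 525 to 3932 and lower from 1177 to 3929, the regulators called higher from 0 to 3 and lower from 1 to 3, and the pathway genes called higher from 0 to 12 and lower from 4 to 8. The cause was not tested where results changed, except that a fit without a library rests on a line with 1 sample, assumed to vary like the other. In CPM the shares of *CCND1*, *CCNE1* and *CDK4* in their families differed by -3.68, -9.60 and 17.6 percentage points, against -6.35, -8.02 and 8.43 in FPKM, with the same signs. The median around *CCNE1* was 0.04 with 25 genes on each side, and those around *CCNE2*, *CCND1*, *CDK4* and *CDK6* were 0.15, -0.25, 0.014 and 0.094. With 10 genes on each side those around *CCNE2* and *CDK4* were 0.37 and 0.19.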

Other observations

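Some genes of the lists differed more between replicates of a line than the regulators did, and they are given here as values chosen after they were seen. *CDC25A*, the phosphatase that activates CDK2, was at 3.85 and 1.30 FPKM in PC9OR replicates 1 and 2 and at 1.82 and 2.62 FPKM in PC9. *TFDP2*, a partner of E2F factors, was at 0.44 and 0.12 FPKM in PC9OR and at 1.23 and 1.02 FPKM in PC9, with a log2 fold change of -1.99 (standard error 0.598, adjusted p = 0.0537, edgeR). Fits that called *TFDP2* lower included the replicate block (-2.23, adjusted p = 0.00148, edgeR), length offsets with the block (adjusted p = 0.0104, edgeR) and DESeq2 (adjusted p = 0.00119). It was not called with length offsets alone (-1.24, adjusted p = 0.133, edgeR), and with each library left out it ran from -3.21 to -1.33. *SMAD4*, the common SMAD, was at 3.55 FPKM in PC9 replicate 1 and at 7.04 FPKM in PC9 replicate 2, and at 7.53 and 7.48 FPKM in PC9OR.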
